A study of Mus musculus with 10 samples.

Results

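The nuclear genes for subunits of the mitochondrial respiratory chain were followed in DMBA/TPA-treated back skin of WT and Zfp36ΔARE mice. Members were chosen by symbol, as all genes whose names begin with Ndufa, Ndufb, Ndufc, Ndufs, Ndufv, Uqcr, Cox4i, Cox5, Cox6, Cox7 or Cox8, together with Sdha to Sdhd and without the Ndufaf assembly factors. There were 68 members among the 24452 named genes of the table, and 65 of them had enough counts to be tested. The 68 comprised 36 genes of complex I, 4 of complex II, 8 of complex III and 20 of complex IV, with Ndufa4 and its relative Ndufa4l2 placed in complex IV, where the Ndufa4 protein is known to sit. The 3 isoforms known from muscle (Cox6a2, Cox7a1 and Cox8b) were set apart from 60 ubiquitous subunits and from 5 isoforms known from other tissues or states (Cox4i2, Cox6b2, Cox7b2, Cox8c and Ndufa4l2). The subunits that mitochondrial DNA encodes were not analysed here.

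Both groups had 5 mice of the C57BL/6 strain, 1 library per mouse. All mice were 7 weeks old at the start, received 400 nmol of the mutagen DMBA once on shaved back skin, and then 10 nmol of the phorbol ester TPA per application for up to 20 weeks. Zfp36ΔARE mice (libraries KI1 to KI5) carry a germline deletion of an AU-rich stretch of the 3′-UTR of Zfp36, the gene for the mRNA-destabilizing protein TTP, so that every tissue carries the change, and the controls (WT1 to WT5) were littermates with the unmodified gene. RNA came from whole-thickness treated skin without tumors, which can hold epidermis, hair follicles, dermis, fat and the thin muscle sheet under the skin.

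Depth ran from 19595035 to 36419573 counts per library. Zfp36 was higher in every Zfp36ΔARE library (4196 to 6134 normalized counts) than in every WT library (1824 to 2496). The basal keratinocyte markers of skin were abundant in all 10 libraries, at 182614 to 353841 summed normalized counts. A normalized count is a count scaled by edgeR's TMM factor to the mean library size. Libraries KI2 to KI5 held 3349 to 4262 counts of Y-linked genes and the other 6 at most 1, so sex and genotype cannot be fully told apart for any gene below. With a term for the Y-linked counts in the edgeR fit, 0 members were called in either direction, and 5 passed an unadjusted p under 0.05, 4 lower and 1 higher. That fit called 0 of all 15543 genes tested, with 1906 lower and 1476 higher at an unadjusted p under 0.05, so its 0 is not particular to the members. KI1, the Zfp36ΔARE library without Y-linked counts, lay below every WT library in Cox6a2, Cox8b, Cox7a1 and Sdhd, whose values follow. KI1 is 1 library, and these genes were picked from those called lower in a fit that included it. Its place therefore cannot tell sex from genotype.

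The respiratory chain passes electrons from NADH and succinate to oxygen and pumps protons across the inner mitochondrial membrane. Complex I accepts electrons from NADH and complex II, succinate dehydrogenase, from succinate. Complex III hands them to cytochrome c, and complex IV, cytochrome c oxidase, gives them to oxygen. Several small subunits of complex IV exist as paired isoforms, one expressed in most tissues and another in heart and skeletal muscle or in other specialized states. Many of the ubiquitous genes are known to carry sites for NRF1, ETS factors of the GABP type and YY1 near their start sites.

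Short promoter windows are shown for ubiquitous members of each complex and for a muscle isoform, picked among the members described below. The promoter window ran from 250 bases before to 50 bases after the start, taken from RefSeq on GRCm38.p6, and 54 of the 68 members had an entry. Windows are written 5′ to 3′ on the gene's strand, with the motif in capitals. The ubiquitous Cox6a1 (chr5:115349057-115349084, minus strand) holds an NRF1 motif, Cox8a (chr19:7217569-7217593, minus strand) an ETS motif, Sdhd of complex II (chr9:50603910-50603937, minus strand) and Uqcrc1 of complex III (chr9:108936669-108936696, plus strand) NRF1 motifs, and Ndufs7 of complex I (chr10:80249464-80249489, plus strand) a YY1 motif. The muscle isoform Cox8b holds a TATA motif (chr7:140900428-140900451, minus strand) and an E-box (chr7:140900416-140900439, minus strand) in overlapping windows. Counted from the annotated start, the motifs begin at -117 (Cox6a1), -79 (Sdhd), 32 (Cox8a), 30 (Uqcrc1) and 24 (Ndufs7). Those of Cox8b begin at 4 (TATA) and 16 (E-box), so both lie after the start. Neither motif is particular to muscle isoforms. The ubiquitous Ndufa3, Ndufa7, Ndufb7 and Ndufs7 also hold the TATA motif, and the ubiquitous Ndufa8, Ndufb10, Ndufs5 and Ndufv2 the E-box. The muscle isoform Cox7a1 holds neither, and Cox6a2 had no promoter entry.
Cox6a1: ggataaagtGCGCAGGCGCtggagttcc
Cox8a: gcgccggaaCTTCCGGctggttcgg
Sdhd: cgctggggtGCGCACGCGCggtggcagc
Uqcrc1: ctccgctctGCGCATGCGCagcgcggct
Ndufs7: gccgaggccAAGATGGCggcgctggc
Cox8b, TATA: caccccagcTATAAAaagccccag
Cox8b, E-box: aaaaagcccCAGCTGgctacctaa

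On either strand, the NRF1 motif (GCGCN followed directly by TGCGC) was in the promoters of 11 of the 54 members with an entry (20.4%) and in 4.6% of all 32851 promoters. The ETS motif CCGGAAG was in 20.4% of members and 8.86% of all promoters, and the YY1 motif AAGATGGC in 13% and 2.75%. The estrogen-related receptor motif AAGGTCA was in 7.41% of members against 4.72%, the E-box CAGCTG in 9.26% against 16.3%, the TATA motif TATAAA in 11.1% against 13.6%, and the MEF2 motif (CTA and TAG with 5 bases of any kind between them) in 3.7% against 3.35%. The median promoter of a ubiquitous member held 19 CpG dinucleotides and that of all genes 7. Cox8b held 2 CpG, Cox7a1 held 7, and their partners Cox8a and Cox7a2 held 19 and 20. These matches describe letters in the reference and are not measurements of binding in this skin.

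The members with the largest change were the 3 muscle isoforms, all lower in Zfp36ΔARE skin, while none of their ubiquitous partners was called by edgeR (DESeq2 called Cox6a1 higher, adjusted p = 0.045). Over all members, 8 were lower in Zfp36ΔARE skin at an adjusted p under 0.05 and 1 was higher, by edgeR's quasi-likelihood test. These 8 were 12.3% of the 65 tested, whereas 19.1% of all 15543 tested genes were lower by the same rule and 15.3% were higher, so being called lower was not more frequent among the members than among all genes. With a fold change over 2 as well, 3 members were lower and 0 higher, against 6.64% and 1.67% of all genes. The count of 8 ran from 2 without KI2 to 14 without WT2 when single libraries were left out. The members shared a small shift in 1 direction, as the fitted log2 fold change was negative in 58 of 65, against 49.1% of all genes, and the median was -0.17, against 0.0076 for all genes. With WT replicates 1 and 3 left out, 36 of the 59 tested ubiquitous members were negative in place of 53, and their median was -0.039 in place of -0.17.

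**Figure D1:**
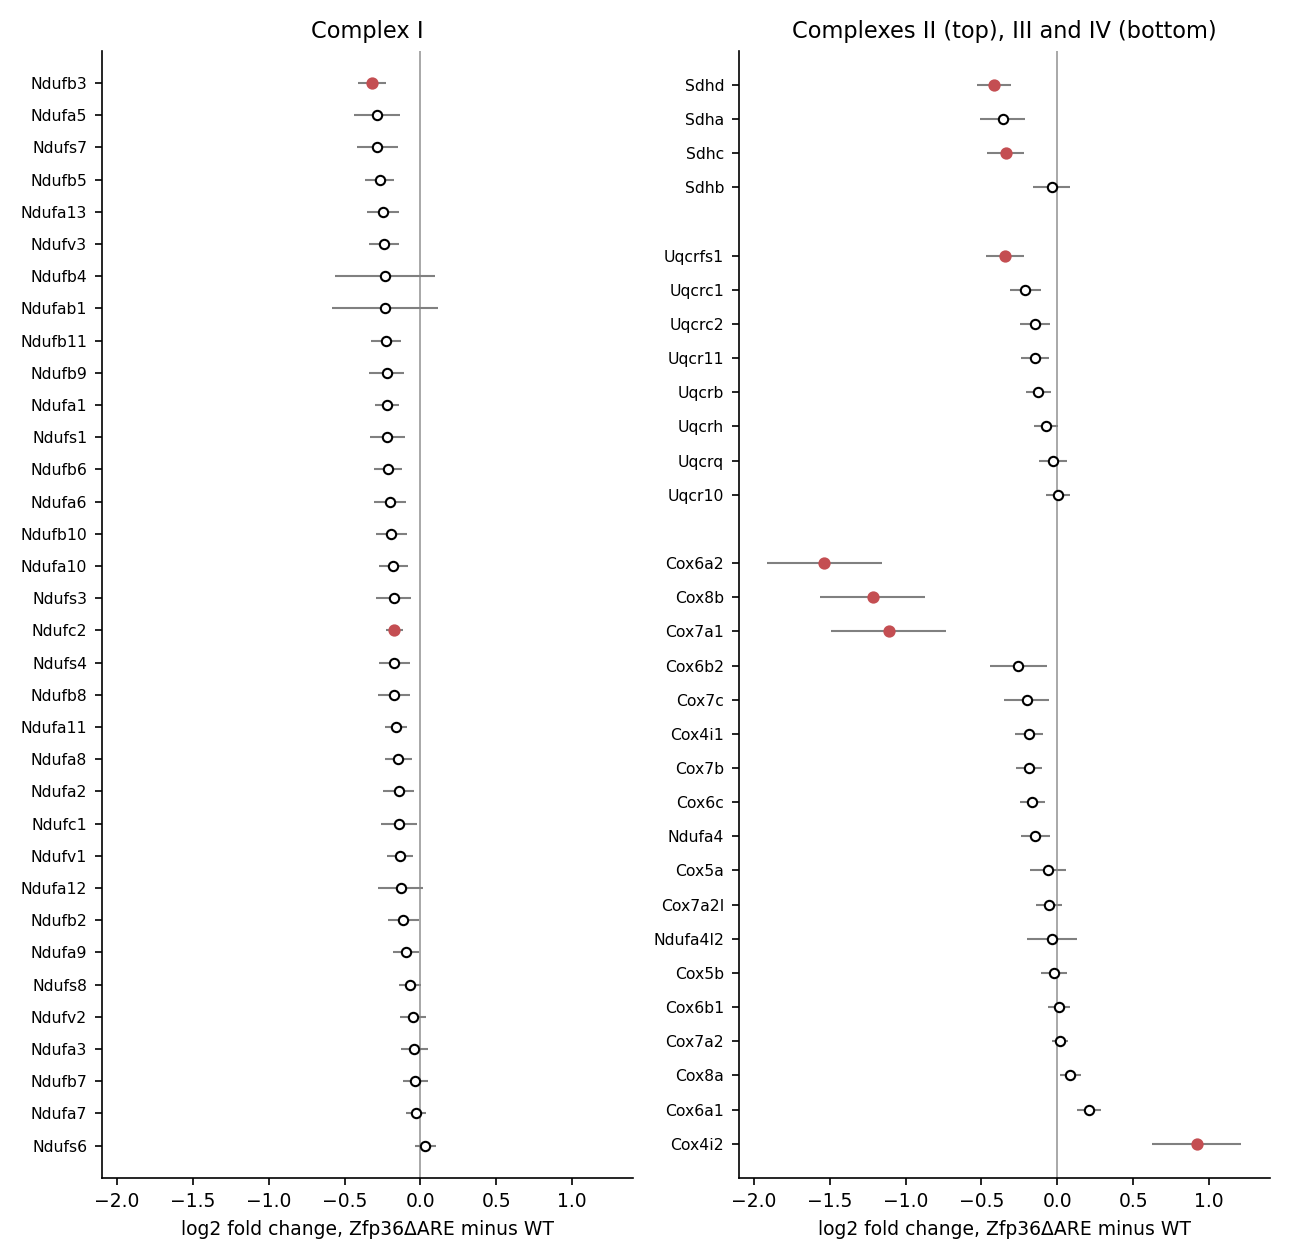
Fitted log2 fold change of the tested members (all but 1), Zfp36ΔARE minus WT, with horizontal bars of 1 standard error and filled red points for adjusted p under 0.05 (edgeR). Complex I stands in the left panel, and complexes II, III and IV from top to bottom in the right panel. Most points lie slightly left of 0, and the 3 muscle isoforms lie between -1.54 and -1.11.

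Cox6a2, the heart and muscle form of subunit VIa of cytochrome c oxidase, stood at 2192, 981, 4377, 1169 and 1797 normalized counts in WT1 to WT5 and at 689, 617, 1057, 601 and 658 in KI1 to KI5. WT3 was the highest library and KI3 the highest of its group, and KI3 lay above WT2, the lowest WT library. The fitted level was 2.90-fold lower in Zfp36ΔARE skin (log2 fold change -1.54, SE 0.38, adjusted p = 0.015). Its partner Cox6a1, which is made in most tissues, had 2937, 3181, 2802, 3277 and 3412 normalized counts in WT and 3681, 3476, 3717, 4058 and 3100 in Zfp36ΔARE skin. For Cox6a1 the groups overlapped, WT3 was the lowest library, and the difference was not called (0.21, SE 0.081, adjusted p = 0.069).

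Cox8b, the muscle form of subunit VIII, gave 1172, 476, 1995, 624 and 848 normalized counts in WT1 to WT5 against 344, 414, 564, 433 and 443 in KI1 to KI5. KI3 lay within the WT range, and the fitted level was 2.33-fold lower in Zfp36ΔARE skin (log2 fold change -1.22, SE 0.35, adjusted p = 0.024). Its partner Cox8a had 2626 to 3065 normalized counts in WT and 2767 to 3352 in Zfp36ΔARE libraries, and the difference was 0.085 (SE 0.071, adjusted p = 0.36).

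Cox7a1, the muscle form of subunit VIIa, had 651, 279, 1219, 315 and 431 normalized counts in WT1 to WT5 and 229, 277, 351, 209.6 and 270.3 in KI1 to KI5. WT2 and KI2 were nearly equal, and the fold was 2.16 (log2 fold change -1.11, SE 0.38, adjusted p = 0.045). The call for Cox7a1 rested on a few libraries, since it was lost when any library other than WT2, WT4 or WT5 was left out alone, and the log2 fold change was -0.65 without WT3. Its partner Cox7a2 varied little, from 3006 to 3249 in WT and from 3072 to 3469 in Zfp36ΔARE libraries, a difference of 0.016 (SE 0.051, adjusted p = 0.82) that turned negative under upper-quartile scaling (-0.019).

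Cox6a2 kept its call without any single library, with log2 fold changes from -1.72 to -1.08, and also without WT1 and WT3 together. The Cox8b call was lost without WT1, KI1 or KI2. Without WT1 and WT3 together, Cox8b stood at -0.57 (adjusted p = 0.087) and Cox7a1 at -0.36 (adjusted p = 0.23).

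**Figure D2:**
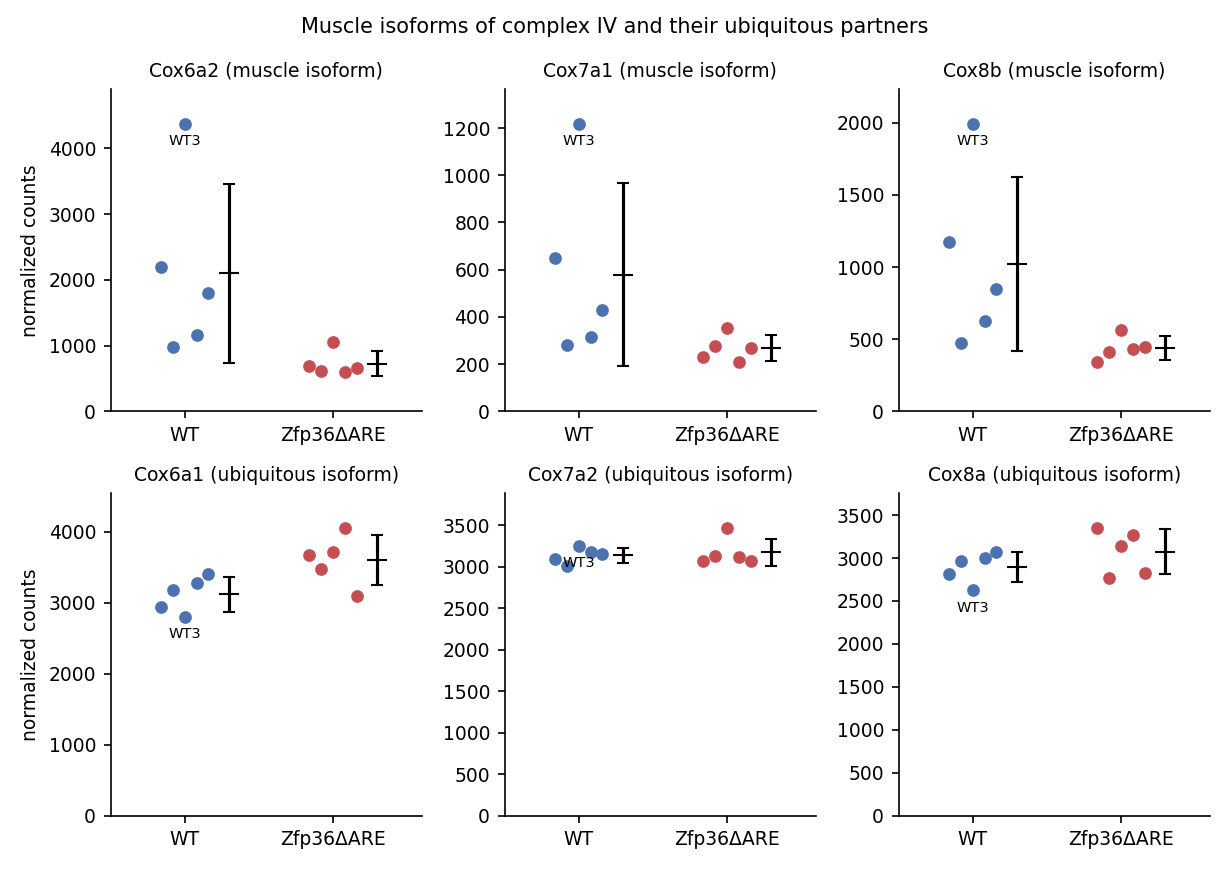
Normalized counts of the 3 muscle isoforms (top row) and of their ubiquitous partners (bottom row) in 5 WT and 5 Zfp36ΔARE libraries, 1 point per library, with bars for the mean ± SD. WT3 is the highest library for each muscle isoform, at 4377 for Cox6a2, and the lowest for Cox6a1 and Cox8a.

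The makeup of the isoform pairs was compared within each library, where no scaling factor enters. Levels per length are given as FPKM, TMM-scaled fragments per kilobase at a common depth. By these levels, Cox6a2 made up 33.1% ± 14.4 (SD, n = 5) of the pair with Cox6a1 in WT skin and 14.0% ± 3.0 (SD, n = 5) in Zfp36ΔARE skin. The WT shares were 37.6%, 20.0%, 55.8%, 22.4% and 29.9%, and the Zfp36ΔARE shares 13.2%, 12.5%, 18.7%, 10.7% and 14.7%, so that the groups did not overlap. The log2 ratio of the pair differed by -1.57 (exact two-sided permutation test, p = 0.0079, which is the smallest that 5 against 5 allows, and adjusted p = 0.048 over 6 pairs). Cox8b made up 32.9% ± 13.5 of its pair with Cox8a in WT and 17.7% ± 3.0 in Zfp36ΔARE skin (SD, n = 5 each). Its log2 ratio differed by -1.13 (exact permutation test, p = 0.016, adjusted p = 0.048). For Cox7a1 and Cox7a2 the shares were 25.8% ± 11.4 and 14.7% ± 2.0 (SD, n = 5 each) and the log2 ratio differed by -0.93 (exact permutation test, p = 0.024, adjusted p = 0.048). In the Cox8b and Cox7a1 pairs the groups overlapped.

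**Figure D3:**
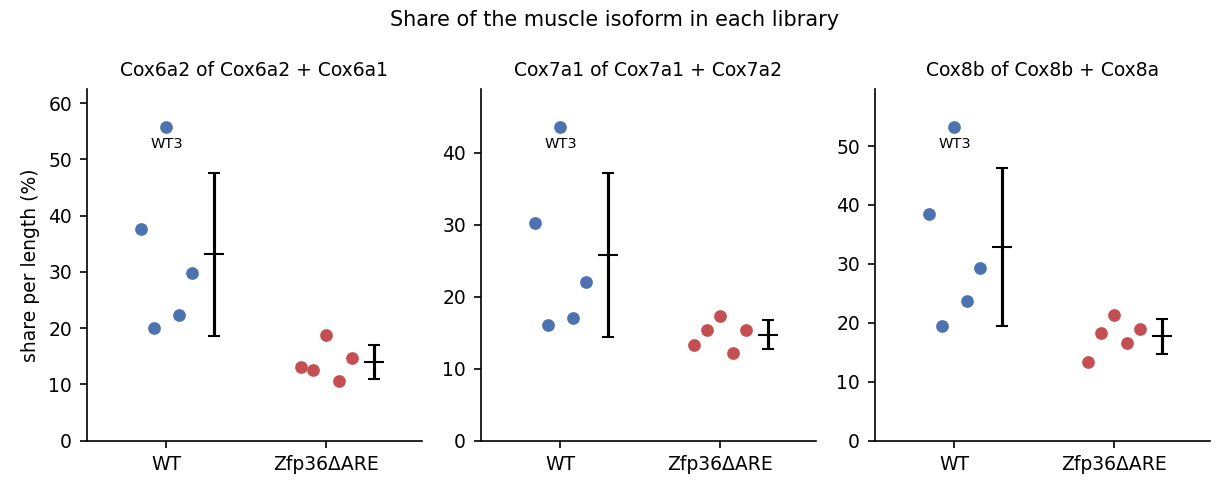
Share of each muscle isoform in the sum of the isoform and its ubiquitous partner, in percent of their summed FPKM, for 5 WT and 5 Zfp36ΔARE libraries (points, with bars for the mean ± SD). WT3 has the highest share in each pair, and the Cox6a2 shares of Zfp36ΔARE libraries all lie below those of WT.

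Markers of skeletal muscle moved in the same direction as the muscle isoforms. Of 14 markers listed for this tissue, including the actin Acta1, the creatine kinase Ckm and the calcium pump Atp2a1, 12 were lower in Zfp36ΔARE skin, all of them over 2-fold, and their median log2 fold change was -1.47. Acta1 changed by -1.52 (SE 0.34), Atp2a1 by -1.73 (SE 0.41) and the fast myosin Myh4, the most abundant of them in WT, by -1.88 (SE 0.60). The summed markers ran from 272325 (WT2) to 1336500 (WT3) normalized counts in WT and from 158468 to 345482 in Zfp36ΔARE libraries. None of the 14 was at 0, and in 14 of 14 WT3 was the highest library. Markers of slow muscle were far fewer, at 204.4 to 1054 summed normalized counts, with 0 of 6 lower and 1 higher by edgeR (Tnni1). Of these 6, 1 was lower at an unadjusted p under 0.05 (Tnnt1), which DESeq2 and limma-voom called lower. In bulk tissue, fewer cells of a type and less RNA per cell cannot be told apart.

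The muscle isoforms were therefore also set against the muscle markers of the same library. Cox6a2 relative to the mean log2 level of the 14 markers was -3.88 ± 0.11 (SD, n = 5) in WT and -3.97 ± 0.15 (SD, n = 5) in Zfp36ΔARE skin, a difference of -0.084 (exact permutation test, p = 0.33). Cox8b differed by 0.22 on this scale (exact permutation test, p = 0.11, adjusted p = 0.17 over 3 isoforms). Cox7a1 was higher relative to the markers in Zfp36ΔARE skin, from -5.57 to -5.27 against -5.94 to -5.61 in WT, with no overlap (difference 0.36, exact permutation test, p = 0.0079, adjusted p = 0.024). Against the slow muscle markers instead, Cox6a2, Cox8b and Cox7a1 differed by -1.06, -0.76 and -0.62, with exact permutation p-values of 0.21 to 0.45. The part of muscle content in the isoform differences was not tested beyond these values.

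Of the other isoforms, Cox4i2, a form of subunit IV known from lung and from low oxygen, was the only member called higher. It was scarce, at 42.4, 40.4, 41.5, 62.1 and 60.9 normalized counts in WT1 to WT5 and at 105.7, 109.5, 127, 85.5 and 36.9 in KI1 to KI5. KI1 to KI4 lay above every WT library and KI5 lay below all of them. The log2 fold change was 0.92 (SE 0.30, adjusted p = 0.036), and the call was lost when any library other than WT4, WT5 or KI5 was left out alone. Its log2 ratio to Cox4i1 differed by 1.0 (exact permutation test, p = 0.040, adjusted p = 0.060 over 6 pairs). Cox4i1 itself, among the most abundant members, was not called (-0.19, SE 0.093, adjusted p = 0.13). Ndufa4l2, known as a hypoxia-induced relative of Ndufa4, was as abundant per length as many ubiquitous subunits, at 117 ± 22.7 FPKM in WT and 115 ± 24.8 in Zfp36ΔARE skin (SD, n = 5 each). Its ratio to Ndufa4 differed by 0.11 (exact permutation test, p = 0.36). Cox6b2, the testis form of subunit VIb, had 75.1 to 126 normalized counts in WT and 60.4 to 105.5 in Zfp36ΔARE libraries, and its ratio to Cox6b1 differed by -0.27 (exact permutation test, p = 0.25). Cox7b2 and Cox8c, also known from testis, had 1 count each in all 10 libraries and were not tested.

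Complex II had the largest median shift of the 4 complexes, with 2 of 4 genes lower and a median log2 fold change of -0.35. Sdhd, a membrane anchor, had 2577, 2137, 3204, 2139 and 2270 normalized counts in WT1 to WT5 against 1704, 1764, 1844, 1859 and 2060 in KI1 to KI5. The groups did not overlap, and Sdhd kept its call without any single library (log2 fold change -0.42, SE 0.11, adjusted p = 0.020). Sdhc, the other anchor, had 2122 to 3579 normalized counts in WT and 2068 to 2195 in Zfp36ΔARE libraries, with WT2 inside the narrow Zfp36ΔARE range (-0.34, SE 0.12, adjusted p = 0.047). The Sdhc call was lost when any library other than WT2 or WT4 was left out alone, and the value was -0.22 without WT3. Sdha, the flavoprotein that oxidizes succinate, had 7989, 6409, 11823, 6917 and 7308 normalized counts in WT against 6120 to 6659 in Zfp36ΔARE libraries, and missed the threshold (-0.36, SE 0.15, adjusted p = 0.081). Sdhb, the iron-sulfur subunit between them, had 3023 to 4858 and 3346 to 4262 and differed by -0.038 (SE 0.12, adjusted p = 0.83). The 4 encode subunits present once each in the complex. In WT, their transcripts had levels per length of 129 ± 24.3 for Sdhb, 106 ± 28.4 for Sdha, 85.9 ± 17.6 for Sdhc and 71.9 ± 13.1 FPKM for Sdhd (SD, n = 5 each), and neighbours in this order lay within their spread.

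In complex I, 2 of 35 tested genes were lower and 0 higher, and 34 had a negative log2 fold change. The 7 catalytic core subunits, which hold the flavin, the iron-sulfur clusters and part of the quinone site, had 0 calls by edgeR, DESeq2 or limma-voom (0 also at an unadjusted p under 0.05) and log2 fold changes from -0.28 (Ndufs7, SE 0.13, adjusted p = 0.12) to -0.048 (Ndufv2, SE 0.085, adjusted p = 0.68). Their sum ran from 17409 (WT2) to 26063 (WT3) normalized counts in WT and from 17567 to 19295 in Zfp36ΔARE libraries.

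The called genes of complex I were 2 accessory subunits of its membrane arm. Ndufb3 had 1462, 1129, 1592, 1201 and 1281 normalized counts in WT1 to WT5 and 989, 1075, 1109, 1091 and 1073 in KI1 to KI5 (log2 fold change -0.32, SE 0.092, adjusted p = 0.024). Ndufc2 had 1116, 1178, 1254, 1219.96 and 1118 against 1101, 1007, 1085, 1043 and 982 (-0.17, SE 0.056, adjusted p = 0.037). For both genes every Zfp36ΔARE library lay below every WT library. The Ndufb3 call was lost without WT1, KI1 or KI2, and the Ndufc2 call without WT2, WT3, WT4, KI2 or KI5. Over all members, the groups did not overlap in 4 of 65 (Ndufb3, Ndufc2, Ndufb5 and Sdhd), against 23.1% of all tested genes. Ndufs5, an accessory subunit known from most tissues, had 0 counts in 9 libraries and 2 in KI5, and was not tested. Of its transcript, 41.2% is shared with another gene, as described below. How shared fragments were counted is not known, so its level is uncertain.

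In complex III, Uqcrfs1, the Rieske iron-sulfur protein, was the 1 gene of 8 that was lower. It had 2758, 2476, 3871, 2542 and 2718 normalized counts in WT1 to WT5 and 2220, 1999.8, 2549, 2378 and 2157 in KI1 to KI5, with KI3 within the WT range. Its log2 fold change was -0.35 (SE 0.12), and its adjusted p of 0.0499 lay at the threshold, with the call lost when any library other than WT2 or WT4 was left out alone (-0.22 without WT3). The core proteins Uqcrc1 and Uqcrc2 differed by -0.21 (SE 0.10, adjusted p = 0.13) and -0.15 (SE 0.097, adjusted p = 0.25). In complex IV, 0 of the 12 ubiquitous genes were called by edgeR or limma-voom and 1 by DESeq2 (Cox6a1, also the 1 gene at an unadjusted p under 0.05), 8 had a negative log2 fold change, and the median was -0.057. Cox5a and Cox5b, which have no isoforms of their own, differed by -0.062 (SE 0.12) and -0.022 (SE 0.083). Cox7a2l, which links complexes III and IV in supercomplexes, differed by -0.053 (SE 0.084, adjusted p = 0.64).

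The most abundant members per length were Cox6b1, at 396 ± 17.5 FPKM in WT, Uqcrh at 366 ± 35.5, Cox4i1 at 355 ± 46.3 and Ndufa4 at 347 ± 35.0 (SD, n = 5 each), and the last 3 did not differ beyond their spread. In WT, Cox6a2 ranked at place 24, Cox8b at place 30 and Cox7a1 at place 55 among the 68 members. The ubiquitous members varied more among WT than among Zfp36ΔARE mice. Their median coefficient of variation was 13.9% in WT and 7.2% in Zfp36ΔARE libraries, and it was larger in WT for 50 of 59 (84.7%), against 60.0% of all tested genes. With WT3 left out, it was larger in WT for 33 of 59 (55.9%), against 46.3% of all tested genes.

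This spread had a common order. WT3 was the highest WT library in 52 of 59 ubiquitous members, against 32.7% of all tested genes, and WT2 the lowest in 48, against 17.0%. Among all 10 libraries WT3 was the highest in 49 of 59 (83.1%), against 28% of all tested genes. Relative to the mean of the other WT libraries, the median ubiquitous member stood at 1.27 in WT3, 1.04 in WT1, 0.97 in WT5, 0.88 in WT4 and 0.84 in WT2. Relative to the mean of the 5 WT libraries, it stood between 0.87 and 0.94 in the Zfp36ΔARE libraries. Among WT libraries, the summed levels per length of complexes I, II, III and IV followed the order WT3, WT1, WT5, WT4, WT2, and the skeletal muscle markers had the same order. WT3 and WT1 also had the most white adipocyte (130147 and 97307 summed normalized counts) and endothelial markers (8284 and 5346). They had the fewest hair shaft markers (2190 and 14307). In these lists the remaining WT libraries followed another order, and macrophage markers were highest in WT1 and WT2 (36693 and 35109). The Zfp36ΔARE libraries did not keep the order of their muscle markers in any complex. KI4 had the fewest muscle markers (158468) but the highest complex IV sum of its group (2754 FPKM). For complex II, the sums were 397, 319, 532, 346 and 372 FPKM in WT1 to WT5 and 317 to 358 in Zfp36ΔARE libraries. For complex IV, they were 2740, 2494, 2979, 2556 and 2685 in WT and 2480 to 2754 in Zfp36ΔARE libraries, so that the groups overlapped in both. With 5 libraries a group, this relation was not tested. Without WT3, 47 of the 59 ubiquitous members were still negative, with a median log2 fold change of -0.093.

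**Figure D4:**
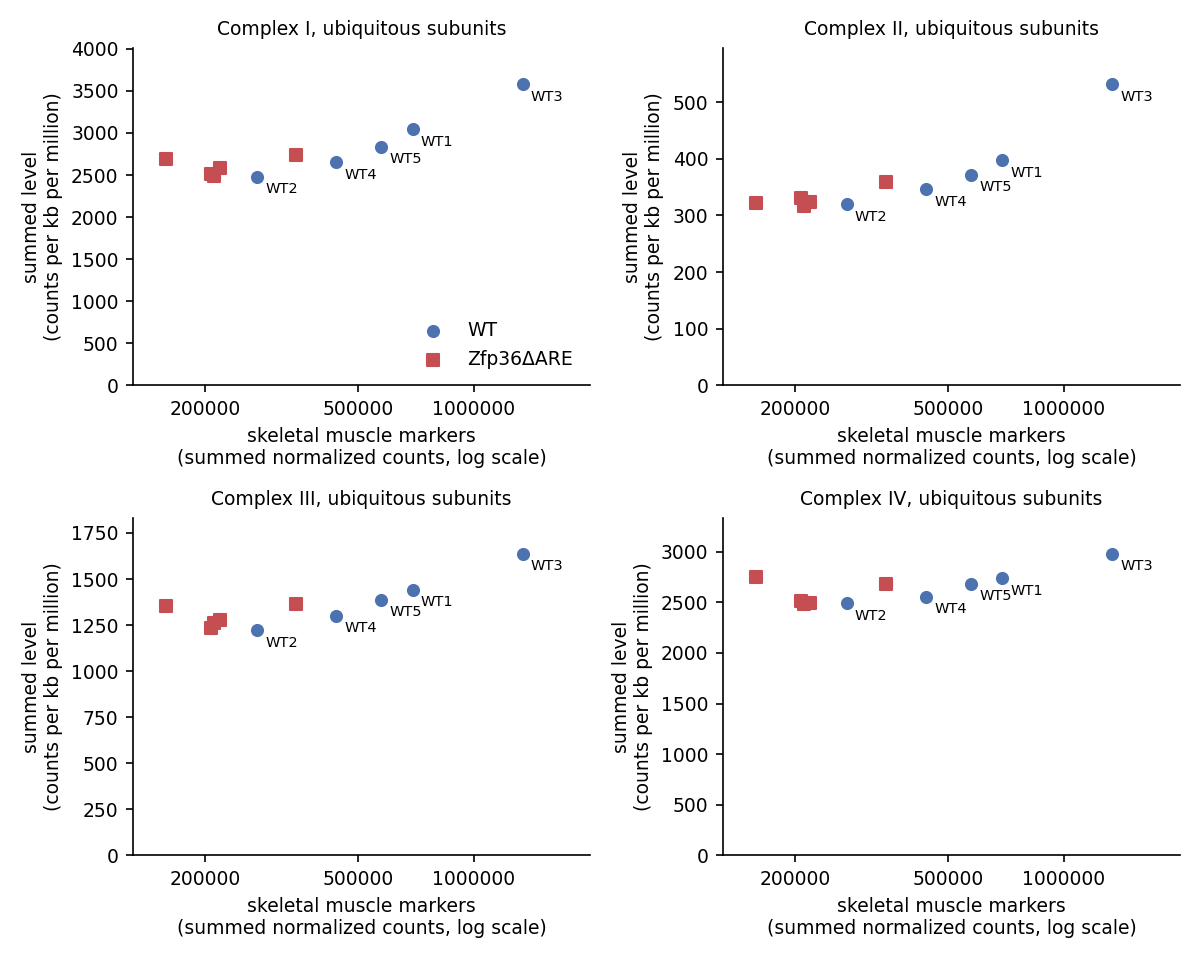
Summed level per length of the ubiquitous subunits of each complex (vertical axes, FPKM) against the summed skeletal muscle markers (horizontal axes, normalized counts on a log scale), 1 point per library. The 5 WT libraries lie in the same order on both axes in all 4 panels, from WT2 to WT3. The Zfp36ΔARE libraries lie mostly at the left, within or just below the range of the WT levels, and do not keep the same order on both axes.

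Other tissues in the biopsy moved as well. White adipocyte markers were lower in 8 of 10 (62838 to 130147 summed normalized counts in WT with WT3 highest, 43132 to 55318 in Zfp36ΔARE libraries). Genes listed as brown adipocyte markers were lower in 3 of the 4 tested, but Ucp1, the defining gene of brown fat, had a mean of 1.9 counts and was not tested. With Ucp1 this scarce, the list cannot be read as a measure of brown fat in this skin. Hair shaft keratins had 2190 (WT3) to 101076 summed normalized counts in WT and 159178 to 459537 in Zfp36ΔARE libraries, and 2 of 10 passed as higher. All 10 had a positive log2 fold change, with a median of 2.29. The groups did not overlap in 10 of 10, against 23.1% of all tested genes. Macrophage markers were lower in 9 of 10, endothelial markers in 5 of 5, fibroblast markers in 4 of 6 and basal keratinocyte markers in 2 of 7, and melanocyte markers were higher in 5 of 5. Their part in the differences of the respiratory chain genes was not tested.

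The rest of the mitochondrial machinery gave few calls. Of 19 genes of ATP synthase, which uses the proton gradient, 0 were called by edgeR, DESeq2 or limma-voom (1 lower at an unadjusted p under 0.05 by edgeR), the median log2 fold change was -0.13, and Atp5b and Atp5a1, the beta and alpha subunits of its catalytic head, differed by -0.12 (SE 0.091) and -0.14 (SE 0.096). Cytochrome c (Cycs) was lower (-0.39, SE 0.12, adjusted p = 0.028), and cytochrome c1 (Cyc1), a part of complex III outside the naming rule, differed by -0.031 (SE 0.080). Among the assembly factors, 1 of 13 for complex I was higher (Nubpl, 0.31, SE 0.098, adjusted p = 0.033) and 1 of 28 for complexes II to IV was lower (Cox20, -0.39, SE 0.12, adjusted p = 0.032). Of 13 enzymes of the tricarboxylic acid cycle, 2 were lower (Dld and Idh3g) and WT3 was the highest library in 13 of 13. Of 12 membrane and import genes, 3 were higher (Tomm40, Hspd1 and Tomm22) and 0 lower by edgeR, DESeq2 or limma-voom (2 lower at an unadjusted p under 0.05).

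Regulators of mitochondrial biogenesis gave calls in both directions. Of 10, 2 were higher in Zfp36ΔARE skin, Pprc1 (0.43, SE 0.093, adjusted p = 0.0094), a coactivator of the PGC-1 family, and Polrmt (0.22, SE 0.060, adjusted p = 0.022), the RNA polymerase of mitochondria, and 1 was lower, the coactivator Ppargc1b (-0.49, SE 0.17, adjusted p = 0.048). Nrf1, Gabpa and Esrra, whose motifs were counted above, differed by 0.16 (SE 0.057), 0.095 (SE 0.052) and -0.016 (SE 0.081), none of them called. The 10 summed to 8112 to 8721 normalized counts in WT and to 9259 to 9973 in Zfp36ΔARE libraries. Much of this difference was Pprc1, the most abundant of them, with a mean of 2069 in WT and 2796 in Zfp36ΔARE skin. Of the 10, 7 had a positive log2 fold change and 3 a negative one.

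Glycolysis, which feeds the chain through pyruvate, had more calls, with 10 of 18 lower and 1 higher. The 3 lower by over 2-fold were the muscle forms Eno3 (-1.66, SE 0.38), Pgam2 (-1.62, SE 0.37) and Pfkm (-1.43, SE 0.36). The more widely expressed Aldoa (-0.84, SE 0.24), Gapdh (-0.70, SE 0.20) and Pkm (-0.40, SE 0.14) were also lower, and Aldoc was higher (0.54, SE 0.11). For Aldoa, Gapdh and Pkm alike, the WT libraries stood in the order of the skeletal muscle markers. Aldoa ran from 127655 normalized counts in WT3 to 46507 in WT2. The part of muscle content in these differences was not tested.

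Copies of a gene elsewhere in the genome limit some members. For each member, the share of 50-base words of its transcript that also occur in annotated transcripts of genes at other loci was counted in GENCODE M21. It was above 0 in 24 of 68 members and at least 30% in 8, Ndufab1 (66.6%), Ndufa12 (53.8%), Cox7c (48.2%), Uqcrb (43.2%), Ndufs5 (41.2%), Ndufb4 (37.0%), Ndufs3 (35.8%) and Cox5b (30.6%). Of the 7 of these that were tested, 0 were called by edgeR, DESeq2 or limma-voom (0 also at an unadjusted p under 0.05), and 6 had KI2 as their highest Zfp36ΔARE library, against 3 of the other 58. Ndufab1, the mitochondrial acyl carrier protein, had 484, 238, 315, 209 and 445 normalized counts in WT1 to WT5 and 220.3, 570.3, 226, 182 and 235 in KI1 to KI5. Ndufb4 showed the same libraries high, with 338, 146, 237, 185 and 263 against 129.6, 389, 149, 158 and 165. KI2 stood at 1.01 to 2.55 times the median of the other Zfp36ΔARE libraries in the 7, and at 0.85 to 1.24 times in the 42 tested members with no shared word. These values can hold fragments of the copies, and they give large errors for Ndufab1 (-0.23, SE 0.35) and Ndufb4 (-0.23, SE 0.33). The muscle isoforms, the genes of complex II and Uqcrfs1 had no shared word.

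**Figure D5:**
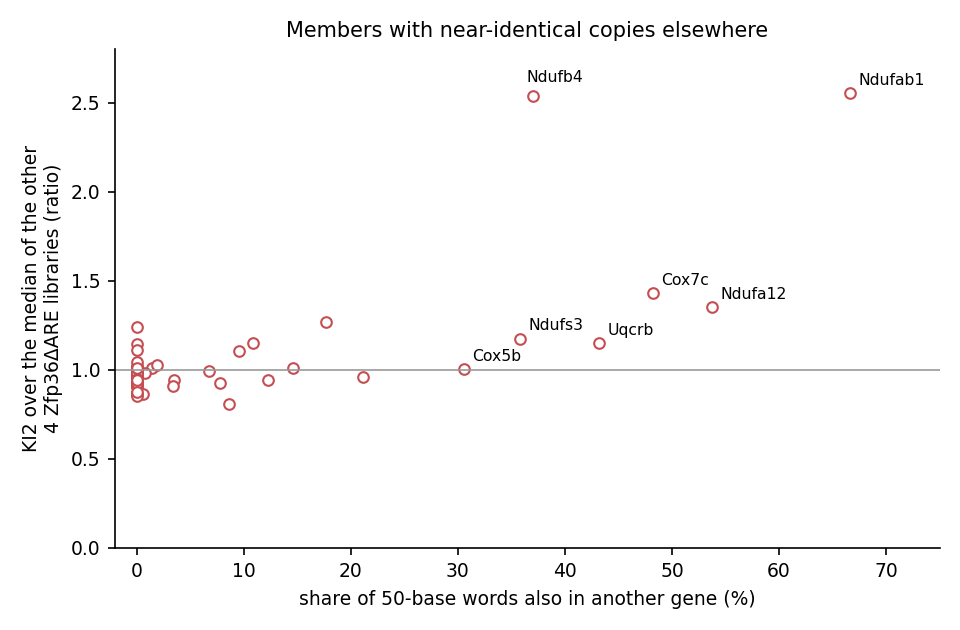
Ratio of KI2 to the median of the other 4 Zfp36ΔARE libraries (vertical axis) against the share of 50-base words of the transcript found in another gene (horizontal axis, %), 1 point for each of the 65 tested members. The 7 named members have at least 30% shared words, and Ndufab1 and Ndufb4 reach ratios above 2.5.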

How the data were processed

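RNA-seq of 10 skin libraries was analysed from 1 table. The authors deposited raw counts of fragments per gene, made by quality filtering of the read pairs, alignment to mm10 (STAR 2.5.2b) and featureCounts (Subread 1.5.0-p1). How fragments matching several genes were handled, and whether strand was used, is not given in the sources used here, so members with copies elsewhere are uncertain. The 2 rows with no gene name held 7.38e-05% of the counts and were left out.

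From the deposited counts, edgeR 4.0.16 (R 4.3.3) with TMM scaling, filterByExpr and robust quasi-likelihood fits tested genotype as the only term over 15543 genes with Benjamini-Hochberg adjustment over all of them. Standard errors are on the log2 scale and were derived from the test, as the absolute log2 fold change over the square root of the quasi-likelihood F statistic. Levels per length (FPKM) were computed as TMM-scaled fragments per kilobase, with the gene length in the file, at a common depth. Isoform ratios used log2 of counts with 0.5 added, and exact two-sided permutation tests. In data simulated at this size, edgeR recovered 40.3% of 1.5-fold and 86.4% of 2-fold changes. The simulation changed only 67 genes by 1.5-fold, 66 by 2-fold and 65 by 3-fold, whereas the fit of the real counts called 34.3% of all tested genes. These shares therefore need not hold for the members. The median biological coefficient of variation was 14.9%. That the libraries of a group are separate mice is taken from the study, and p-values measure the spread between them. DESeq2 1.42.0 and limma 3.58.1 (voom) were alternatives.

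Values of 1 member are not reported here. Named genes were the isoforms and partners, the catalytic core subunits, the largest called changes of each complex, members that were not tested, and in other lists the most abundant or called genes. Members named for shared words, other members named for a TATA motif or an E-box, Ndufb5, the called genes of lists with 3 or fewer calls, Tnnt1, Aldoc and Nrf1 were named after their values were seen. The members, lists and tests were chosen with earlier results of these data known. Replicate numbers do not pair the libraries (correlations of same-numbered libraries from -0.19 to 0.085).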

Additional observations from a re-analysis of the deposited data

Results flagged for a closer look

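Among 148 groups of 5 libraries examined (each tested member, isoform ratio and muscle-marker difference in each genotype), 13 had a library far from the other 4, where chance gives about 7.4. The gap to the nearest library is given as a share of the group's range. In WT, WT3 stood alone above the rest in 6 genes, Uqcrfs1 (0.797), Ndufv2 (0.797), Ndufs1 (0.739), Cox5a (0.742), Cox7b (0.805) and Ndufa4 (0.721). WT3 was also the library with the most skeletal muscle markers. In Zfp36ΔARE skin, KI2 stood alone in Ndufab1 (0.863) and Ndufb4 (0.864), both with many words shared with other genes. KI3, the Zfp36ΔARE library with the most skeletal muscle markers, stood alone in Cox6a2 (0.806), Cox7a2 (0.858), Sdhb (0.757) and Ndufb2 (0.747), and KI4 in Uqcrc1 (0.769). In each case the library was the highest of its group. The cause was not tested.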

How the results depend on the processing

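Members called lower were 8, and 16 with total counts only, 5 without a filter, 5 by limma-voom, 4 with the replicate block, 1 without WT replicates 1 and 3, 0 with a term for Y-linked counts and 0 without WT replicates 1 and 5 and KI replicate 2 (a setting chosen after seeing the data). Over all genes, the Y-linked term gave 0 calls of 15543 and the last setting 369 lower and 47 higher of 15662, against 2962 and 2373 of 15543. Leaving out each library gave 2 (without KI2) to 14 (without WT2). Members called higher were 1, and 2 by DESeq2, 0 by limma-voom, under the block, with the Y-linked term and in both settings without several libraries, and 0 to 2 leaving out each library. Over 2-fold, 3 were lower, 0 with the Y-linked term and in both settings without several libraries and 1 to 3 leaving out each library, and 0 were higher, against 0 to 1. With the Y-linked term, Cox6a2 was -1.61 (adjusted p = 0.25), Cox7a1 -1.34 and Cox8b -1.57. Without WT replicates 1 and 5 and KI replicate 2, they were -1.53 (adjusted p = 0.11), -1.18 and -1.21, none called. Cox7a1 was not called without a filter (-1.11), under the block (-0.92), by limma-voom (-0.86) or without WT replicates 1 and 3 (-0.36), where Cox8b was -0.57. Leaving out each library gave Cox7a1 -1.29 to -0.65 and Cox8b -1.40 to -0.83. Ratios are judged here by unadjusted exact permutation p. Paired by replicate number, the ratios stayed at -1.57 (Cox6a2), -0.93 (Cox7a1) and -1.13 (Cox8b), and Cox7a1 relative to the muscle markers at 0.36, each at an exact p of 0.0625, the smallest that 5 pairs allow, so the pairing could call none of them. No library correlated best with its own number. Without WT replicates 1 and 3, the Cox7a1 and Cox8b ratios were -0.38 and -0.56, and leaving out each library gave -1.12 to -0.62 and -1.37 to -0.81. Relative to slow muscle markers, the differences of Cox7a1 and Cox8b reversed to -0.62 and -0.76, and Cox8b relative to the skeletal markers ran from 0.11 to 0.30 leaving out each library. Among genes not called, Cox7a2 reversed under upper-quartile scaling (-0.019), total counts only (-0.058), the Y-linked term (-0.030) and without KI replicate 3 (-0.022), with -0.022 to 0.029 leaving out each library. Ndufa4l2 ran from -0.14 to 0.074 leaving out each library and reversed without WT replicate 3 (0.074), KI replicates 1 (0.017), 2 (0.0033) or 3 (0.040), WT replicates 1 and 3 (0.13), and WT replicates 1 and 5 and KI replicate 2 (0.031). The causes were not tested. The Cox6a2 ratio kept its side of the threshold in every setting other than the pairing. Ndufs5, Cox7b2 and Cox8c had too few counts to test. At this depth and group size 40.3% of simulated 1.5-fold changes were called, in a simulation with few changed genes, so this share need not hold for the members.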
